A study of Mus musculus with 9 samples.

Results

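The genes described here encode the matrix metalloproteinases and their tissue inhibitors that were followed in mouse granulosa cells around the ovulatory stimulus. The family was set by symbol: the proteases *Mmp2*, *Mmp9*, *Mmp11*, *Mmp14*, *Mmp15* and *Mmp19* and the inhibitors *Timp1*, *Timp2* and *Timp3*, which are 9 of the 25059 gene identifiers in the deposited tables. All 9 symbols were found, each on a single identifier, with 16 table rows in all. The cells came from the ovaries of Kunming mice at postnatal day 21. Every group had 5 IU of PMSG, a gonadotropin that drives follicle growth, 48 h before the 0 h time. The 0 h group had nothing further, and the 1 h and 6 h groups were taken 1 and 6 h after 5 IU of hCG, a hormone that stands in for the LH surge and brings on ovulation. There were 3 libraries per time and 9 in all. The labels do not say whether replicates are separate animals or pools, so the p-values measure only the spread between libraries, which may be technical. Without a matched group that had no hCG, time after hCG and time of day cannot be told apart.

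Matrix metalloproteinases are zinc enzymes that cut collagens, laminins and other proteins of the extracellular matrix. Most are made as inactive precursors, and activation, inhibition by TIMPs and clearance from the cell surface set their activity as much as the amount of messenger RNA does. In the ovary they are known for the breakdown of the follicle wall at ovulation and for the remodelling that builds the corpus luteum. Only messenger RNA was measured here.

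Levels are FPKM, in which fragment numbers are divided by transcript length and by the mapped total, so that levels of different genes can be set side by side. The sum of FPKM ran from 491920 to 570986 per library, 13587 to 13862 genes per library had at least 1 FPKM, and the depth in reads is unknown. Of 10 granulosa cell markers, 10 averaged at least 1 FPKM at every time. Markers of other ovarian cells were present too. The 13 theca and stroma markers summed to 221 to 349 FPKM at 0 h, 293 to 451 at 1 h and 126 to 158 at 6 h. Of these sums *Cyp17a1* alone averaged 123 ± 32.3, 193 ± 70.5 and 21.9 ± 5.04 FPKM. The 10 endothelial markers summed to 30.6 to 40.2, 32.6 to 40.2 and 34.7 to 50.9 FPKM, and the 12 leukocyte markers to 17.7 to 31.6, 22.2 to 36.1 and 15.2 to 21.9 FPKM. The 10 oocyte markers summed to 44.8 to 69.3, 57.5 to 70.4 and 80.8 to 120.5 FPKM. In material from mixed cells, fewer cells of a type and less RNA per cell cannot be told apart.

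Promoters are shown for *Timp1*, *Mmp11* and *Mmp15*, because these members were called in both comparisons with 6 h and are in the RefSeq promoter table used here (GRCm38.p6). The RefSeq promoter table used here holds 6 of the 9 members (*Mmp11*, *Mmp14*, *Mmp15*, *Timp1*, *Timp2* and *Timp3*), and promoters of *Mmp2*, *Mmp9* and *Mmp19* were not analysed here. Each line gives the 250 bases before the RefSeq start of the gene, 5′ to 3′ on the strand of the gene, with matches to the motifs searched in capitals. *Timp1* was higher at 6 h, and *Mmp11* and *Mmp15* were lower.
Timp1, chrX:20869916-20870165, plus strand: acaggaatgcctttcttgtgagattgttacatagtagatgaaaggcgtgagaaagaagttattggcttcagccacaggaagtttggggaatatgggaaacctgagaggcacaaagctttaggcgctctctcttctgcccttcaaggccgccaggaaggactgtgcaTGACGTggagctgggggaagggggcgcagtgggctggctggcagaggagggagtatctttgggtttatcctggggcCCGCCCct
Mmp11, chr10:75932503-75932752, minus strand: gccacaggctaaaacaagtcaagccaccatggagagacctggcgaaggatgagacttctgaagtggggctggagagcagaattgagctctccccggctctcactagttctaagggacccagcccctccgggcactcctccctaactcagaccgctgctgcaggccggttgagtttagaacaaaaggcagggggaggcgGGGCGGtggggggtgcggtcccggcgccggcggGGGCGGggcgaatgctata
Mmp15, chr8:95352046-95352295, plus strand: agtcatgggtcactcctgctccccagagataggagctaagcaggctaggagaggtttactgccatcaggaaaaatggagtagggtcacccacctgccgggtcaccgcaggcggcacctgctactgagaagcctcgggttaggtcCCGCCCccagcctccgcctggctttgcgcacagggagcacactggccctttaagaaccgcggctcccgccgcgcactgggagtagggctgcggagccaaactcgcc
In GENCODE M21 the *Timp1* window lies just before the gene, the *Mmp15* window reaches 28 bases into its first exon, and the *Mmp11* window lies within the gene but in none of its exons. The window of *Timp2*, also called in both comparisons, holds 203 bases of GENCODE exons and is described but not printed. The motifs, searched on both strands, were AP-1 (TGANTCA), part of the cAMP response element (TGACGT), RUNX (TGTGGT), a GC box (GGGCGG), C/EBP (TTGCNNAA) and a TATA box (TATAAA). A match is a run of letters and not a shown binding site. *Timp1* held TGACGT from base 84 to base 79 before the start, a match found in 6.47% of the 32851 promoters of the table, and it was the only one of the 6 members with that match. A GC box stood in all 6 promoters, against 32.7% of the table. In *Timp2* it began 37 bases before the start, in *Mmp11* 52 and 19 bases, and in *Mmp15* 106 bases before it. *Mmp14* was the only member with the RUNX letters, which 14.0% of promoters held. None of the 6 members held the AP-1, C/EBP or TATA letters in this window, which 6.75%, 9.56% and 12.4% of promoters held. GC content was 54.4% in *Timp1*, 68.0% in *Timp2*, 63.2% in *Mmp11* and 63.6% in *Mmp15*, beside a median of 52.4% over the table.

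Changes were tested as log2(FPKM + 1) with limma in a single fit of all 9 libraries, and a call was an adjusted p (Benjamini-Hochberg) below 0.05 over all 14535 genes with at least 1 FPKM in 3 or more libraries. This scale understates the change of low genes. Of the 9 members, 8 passed this filter and *Mmp9* did not. The comparisons of 6 h with 0 h and with 1 h share the 6 h libraries, and those of 1 h and 6 h with 0 h share the 0 h libraries. Log2 changes are given with their standard error (SE), and levels as mean ± SD with n = 3.

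At 1 h after hCG no member of the family was called. With limma, 0 of 8 were called in either direction and 0 had an unadjusted p below 0.05, while 15.7% of all genes tested were called, 9.68% higher and 5.98% lower. The libraries of 1 h and 0 h overlapped for all 8, beside 35.5% of genes tested whose libraries did not. The change largest in size was in *Timp3*, at 0.28 on the log2 scale with a 95% interval of −0.13 to 0.68. The narrowest interval was that of *Mmp14*, −0.11 to 0.19. For *Timp1* it was −0.30 to 0.48, and a change as large as that of *Timp1* at 6 h lay outside all 8 intervals. The sign of these small changes was not stable: those of *Mmp14*, *Timp1* and *Timp2* turned negative with FPKM scaled to a common sum or quantile normalized, that of *Mmp19* turned negative under the first and that of *Mmp15* positive under the second. The first of these scalings moved the median gene by −0.14.

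By 6 h after hCG the family had moved in both directions. *Timp1*, *Timp2* and *Mmp19* were higher than at 0 h and *Mmp11* and *Mmp15* were lower, while *Mmp2*, *Mmp14* and *Timp3* were not called. This made 5 of 8 members called, beside 56.6% of all genes tested, 28.8% of them higher and 27.9% lower, so the share called in the family was near that of all genes. The libraries of 6 h and 0 h did not overlap for 6 of 8 members, beside 64.9% of genes tested. Against 1 h, 6 of 8 were called, 3 higher and 3 lower, beside 53.5% of all genes (26.7% higher and 26.9% lower), and 7 of 8 did not overlap, beside 60.5%. The median log2 change of the 8 members was 0.17 against 0 h and 0.07 against 1 h, where the medians over all genes tested were −0.004 and −0.001.

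**Figure D1:**
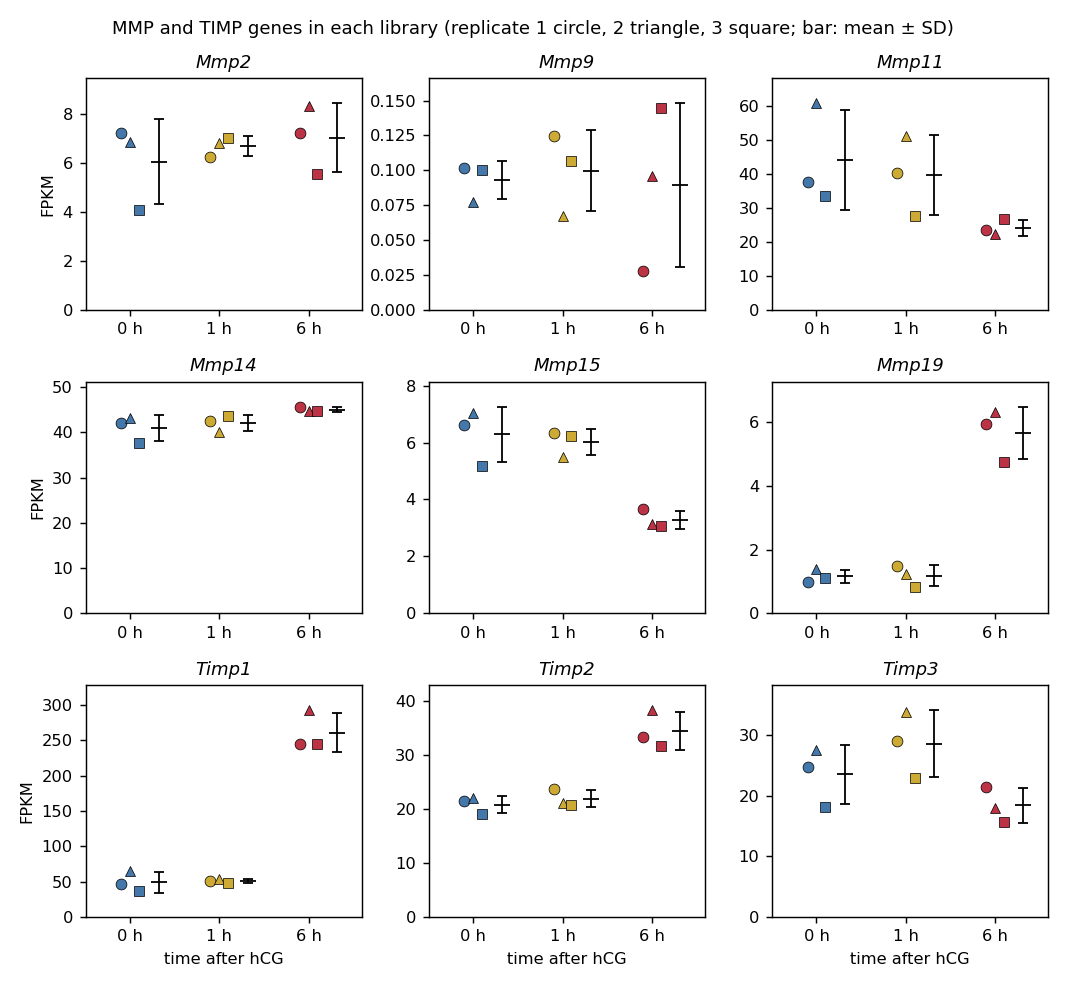
FPKM of each of the 9 genes in each library by time after hCG, on linear axes from 0 that differ between panels; symbols are replicates and bars give the mean ± SD of 3 libraries. *Timp1*, *Timp2* and *Mmp19* lie higher at 6 h than in any library of 0 or 1 h, *Mmp11* and *Mmp15* lower, and *Mmp9* stays below 0.15 FPKM throughout.

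*Timp1* (ENSMUSG00000001131, chromosome X, 20870166 to 20874735, mm10, plus strand) encodes a secreted inhibitor of most soluble matrix metalloproteinases that is weak against the membrane-type enzymes. It measured 46.0, 65.3 and 36.1 FPKM in the 0 h libraries, 51.1, 53.3 and 48.1 at 1 h, and 245, 293 and 245 at 6 h. All 6 h libraries lay far above all others, and the 0 and 1 h libraries overlapped. The mean went from 49.2 ± 14.9 at 0 h and 50.8 ± 2.65 at 1 h to 261 ± 27.6 FPKM at 6 h. The log2 change was 2.42 ± 0.17 (SE) against 0 h (limma, adjusted p = 2.71e-06) and 2.33 ± 0.17 against 1 h (adjusted p = 4.22e-06). In the order of all 14535 log2 changes, counted from the highest, *Timp1* stood at place 204 against 0 h and at place 126 against 1 h. By mean level it went from place 1440 of all genes at 0 h to place 237 at 6 h.

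The rise was carried by both table rows of *Timp1*. The rows are not named in the files and the split of reads between them is an estimate. In the 0 h libraries row 1 gave 22.1, 35.7 and 19.8 FPKM and in those of 6 h 115, 131 and 137. Row 2 gave 24.0, 29.6 and 16.3 FPKM before hCG and 130, 162 and 109 FPKM at 6 h. The share of row 1 lay between 41.5% and 55.7% in all 9 libraries, with no separation of the times. From the row with the higher mean alone, the change against 0 h was 2.49 ± 0.21.

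*Timp2* (ENSMUSG00000017466, chromosome 11, 118301069 to 118355740, minus strand) encodes the inhibitor that also bridges the *Mmp14* product and the *Mmp2* precursor on the cell surface, where the precursor is activated. Its FPKM were 21.4, 22.0 and 19.0 at 0 h, 23.6, 21.2 and 20.7 at 1 h, and 33.3, 38.2 and 31.6 at 6 h. Again the 6 h libraries stood above all others and the earlier times overlapped. The mean at 6 h was 34.4 ± 3.43 FPKM, from 20.8 ± 1.59 at 0 h and 21.8 ± 1.57 at 1 h. This was a log2 change of 0.70 ± 0.09 against 0 h (limma, adjusted p = 0.000138) and 0.63 ± 0.09 against 1 h (adjusted p = 0.000318). The ratio of the means was 1.65 against 0 h, far less than the 5.31 of *Timp1*.

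The 6 h libraries divided *Timp2* differently between its 2 rows. Row 2 measured 9.94 and 10.3 FPKM in replicates 1 and 2 at 6 h and 0.618 in replicate 3, whereas row 1 was highest in replicate 3 (31.0 FPKM, against 23.4 and 28.0). The sum of the rows was thus closer between the libraries than either row. At 0 h row 2 made up 6.54% to 14.3% of the gene. The rise held from row 1 alone, at 0.52 ± 0.11 against 0 h (adjusted p = 0.00258).

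*Timp3* (ENSMUSG00000020044, chromosome 10, 86300372 to 86349506, plus strand) encodes the inhibitor that binds to the matrix and also restrains ADAM and ADAMTS proteases. It had levels of 24.8, 27.6 and 18.1 FPKM at 0 h, 29.0, 33.9 and 22.9 at 1 h, and 21.5, 18.0 and 15.7 at 6 h. The 6 h libraries lay below all 1 h libraries but overlapped those of 0 h. Against 1 h the log2 change was −0.60 ± 0.18 (limma, adjusted p = 0.0177), and leaving out 1 h replicate 2 (adjusted p = 0.0633) or 6 h replicate 3 (0.0646) ended this call. Against 0 h it was −0.33 ± 0.18 and not called (adjusted p = 0.148), though it was called without 0 h replicate 3 (−0.50, adjusted p = 0.0362). The 3 inhibitors thus did not share a direction: at 6 h *Timp1* and *Timp2* were above and *Timp3* below their 1 h levels.

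**Figure D2:**
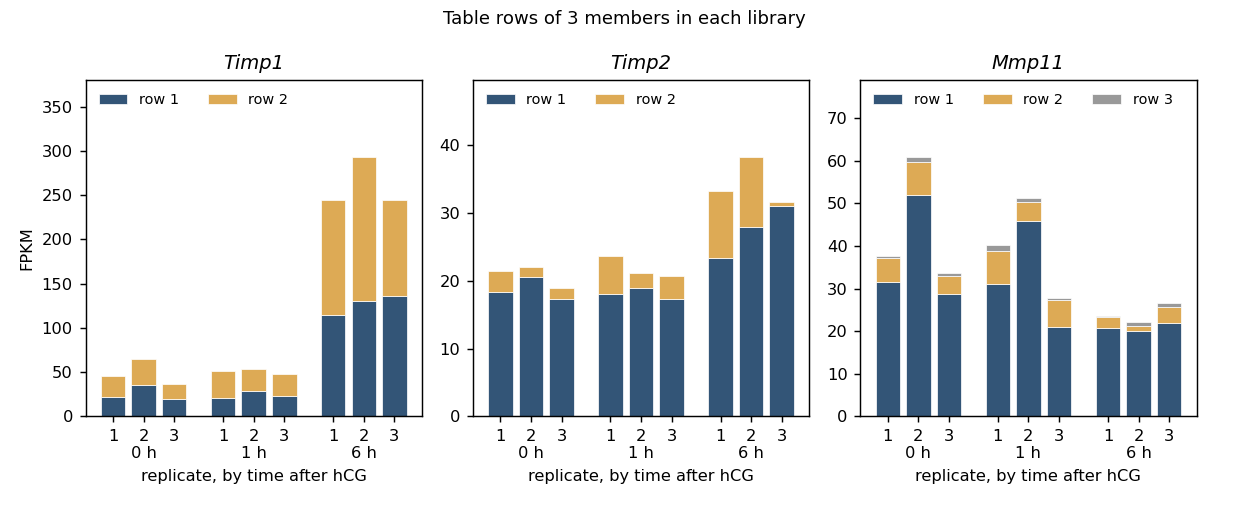
FPKM of the table rows of *Timp1*, *Timp2* and *Mmp11*, stacked to the level of the gene in each library; the bars of a time are its 3 replicates. Both rows of *Timp1* are higher at 6 h, and row 2 of *Timp2* is 9.94, 10.3 and 0.618 FPKM in the 6 h libraries.

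Among the proteases *Mmp19* (ENSMUSG00000025355, chromosome 10, 128790910 to 128800824, plus strand), a secreted enzyme that cuts basement membrane proteins, was the only one called higher. It showed 0.978, 1.39 and 1.09 FPKM at 0 h, 1.47, 1.23 and 0.840 at 1 h, and 5.94, 6.31 and 4.75 at 6 h. The 6 h libraries stood apart from a low level that did not differ between 0 and 1 h beyond its spread. The log2 change was 1.63 ± 0.15 against 0 h (limma, adjusted p = 1.38e-05) and 1.62 ± 0.15 against 1 h (adjusted p = 1.71e-05). The means were 1.16 ± 0.214 and 5.67 ± 0.817 FPKM at 0 and 6 h, a ratio of 4.91 that was close in size to that of *Timp1* at a far lower level. *Mmp19* passed the filter on low values with libraries of all 3 times.

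*Mmp11* (ENSMUSG00000000901, chromosome 10, 75923222 to 75936496, minus strand), also called stromelysin-3, is activated inside the cell by furin-type convertases. It gave 37.6, 60.8 and 33.5 FPKM at 0 h, 40.2, 51.2 and 27.7 at 1 h, and 23.6, 22.2 and 26.7 at 6 h. The 6 h libraries lay below all others, narrowly in the case of 6 h replicate 3 and 1 h replicate 3, and the earlier libraries were widely spread. The log2 change was −0.80 ± 0.24 against 0 h (limma, adjusted p = 0.0176) and −0.66 ± 0.24 against 1 h (adjusted p = 0.0423). Leaving out 0 h replicate 2 (−0.54, adjusted p = 0.0578) or 6 h replicate 2 (−0.74, adjusted p = 0.058) ended the first call. The second ended in 11 of its 17 alternatives, with adjusted p from 0.0519 to 0.145, among them both other scalings, the most abundant row alone, and the fits without 0 h replicate 1, without 1 h replicate 1 or 2 and without any single 6 h library. That row held 75.7% to 90.8% of the gene.

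*Mmp15* (ENSMUSG00000031790, chromosome 8, 95352268 to 95375080, plus strand) encodes a membrane-type protease related to the product of *Mmp14*. Its FPKM were 6.63, 7.04 and 5.18 at 0 h, 6.33, 5.49 and 6.25 at 1 h, and 3.65, 3.13 and 3.06 at 6 h. No 6 h library reached the lowest of the earlier ones. The log2 change was −0.76 ± 0.12 against 0 h (limma, adjusted p = 0.000482) and −0.71 ± 0.12 against 1 h (adjusted p = 0.000821), and both calls held under every alternative run.

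*Mmp14* (ENSMUSG00000000957, chromosome 14, 54431612 to 54445364, plus strand), the membrane-type collagenase that activates the *Mmp2* precursor, had the narrowest range over the 9 libraries relative to its level. It showed 42.2, 43.1 and 37.6 FPKM at 0 h, 42.5, 40.1 and 43.6 at 1 h, and 45.7, 44.7 and 44.8 at 6 h. The 6 h libraries lay just above all others, but the log2 change of 0.14 ± 0.07 against 0 h was not called (limma, adjusted p = 0.109), with a 95% interval of −0.01 to 0.29. Against 1 h it was 0.10 ± 0.07 (adjusted p = 0.242), with an interval of −0.05 to 0.25. A change as large as that of *Timp2* lay outside both intervals.

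*Mmp2* (ENSMUSG00000031740, chromosome 8, 92827291 to 92853420, plus strand) encodes gelatinase A, which cuts denatured collagen and the collagen of basement membranes. It gave 7.23, 6.86 and 4.06 FPKM at 0 h, 6.23, 6.80 and 7.03 at 1 h, and 7.23, 8.34 and 5.53 at 6 h. The libraries of all 3 times overlapped. At 6 h the change was 0.21 ± 0.19 against 0 h (limma, adjusted p = 0.384; 95% interval −0.22 to 0.63) and 0.05 ± 0.19 against 1 h (adjusted p = 0.848).

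*Mmp9* (ENSMUSG00000017737, chromosome 2, 164940780 to 164955850, plus strand) encodes gelatinase B, which neutrophils store and release. Its level was near 0, with 0.102, 0.0772 and 0.101 FPKM at 0 h, 0.124, 0.0675 and 0.107 at 1 h, and 0.0277, 0.0961 and 0.145 at 6 h. All values stayed far below the filter of 1 FPKM, and its second row was listed at 0 in every library. With no filter on low values it was not called in any comparison (limma, adjusted p from 0.849 to 0.963). The 3 neutrophil genes of the leukocyte list did not pass the filter either. *Csf3r* averaged 0.0984 ± 0.0235 FPKM at 0 h, 0.113 ± 0.0520 at 1 h and 0.162 ± 0.0778 at 6 h. *S100a8* reached at most 0.338 FPKM and was listed at 0 in libraries of each time. *S100a9* was at 1.49 FPKM in 0 h replicate 2, listed at 0 in the other 0 h libraries, and between 0.268 and 0.610 FPKM at 6 h.

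**Figure D3:**
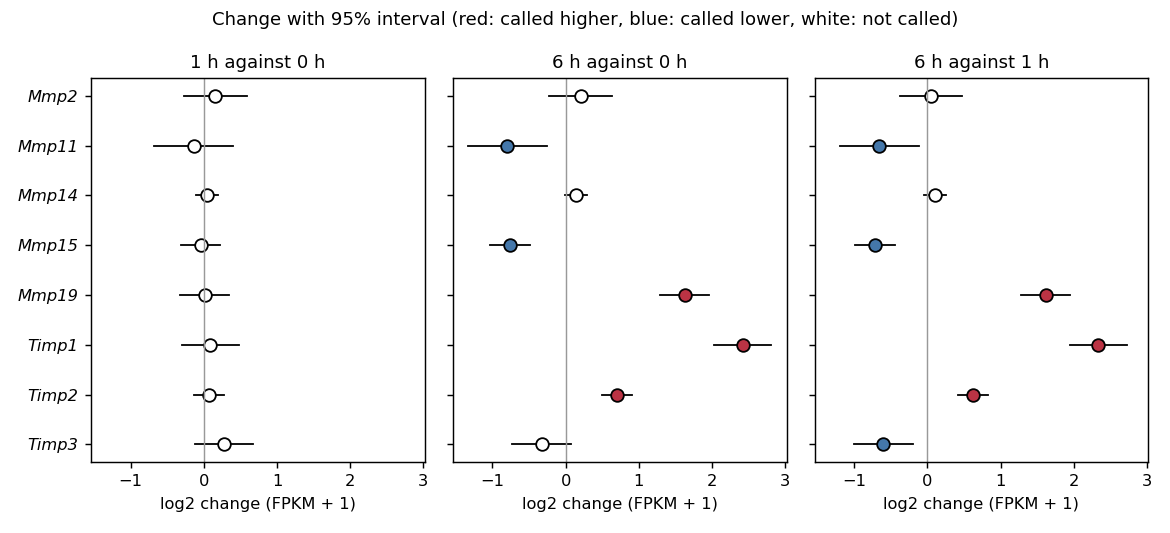
Log2 change of log2(FPKM + 1) with its 95% interval for the 8 tested genes in the 3 comparisons; filled points passed an adjusted p below 0.05. At 1 h all intervals include 0, and at 6 h *Timp1* (2.42) and *Mmp19* (1.63) have the largest changes.

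The order of levels within the family changed with time. At 0 h *Timp1*, *Mmp11* and *Mmp14* were highest, with overlapping libraries, followed by *Timp3* and *Timp2*, which overlapped each other, then by *Mmp15* and *Mmp2*, which overlapped as well, and by *Mmp19* and *Mmp9*. At 1 h the same 3 genes led by mean, with *Timp1* above *Mmp14* in every library. *Mmp14* and *Mmp11* overlapped, and so did *Mmp11* and *Timp3*, and *Timp3* and *Timp2*. At 6 h neighbours in the order *Timp1*, *Mmp14*, *Timp2*, *Mmp11*, *Timp3*, *Mmp2*, *Mmp19*, *Mmp15* and *Mmp9* did not overlap, except *Mmp2* and *Mmp19*. *Timp2* had thus come above *Mmp11* and *Timp3*, and *Mmp19* above *Mmp15*.

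The balance of inhibitor and protease messenger RNA was described from sums of FPKM over the members, with no test. These sums leave out *Mmp23*, at 23.7 and 14.1 FPKM at 0 and 6 h. They also leave out *Mmp16*, at 3.62 and 5.19 FPKM, and *Timp4*, at 2.18 and 0.399 FPKM. The sums, ratios and shares thus hold for the members only. The 6 proteases together summed to 94.7, 119 and 81.6 FPKM at 0 h, 96.9, 105 and 85.5 at 1 h, and 86.1, 84.8 and 85.0 at 6 h. The 3 inhibitors summed to 92.2, 115 and 73.2 FPKM at 0 h, 104, 108 and 91.7 at 1 h, and 300, 349 and 292 at 6 h. The protease sums overlapped between the times, while the inhibitor sums at 6 h stood apart. The ratio of the inhibitor sum to the protease sum averaged 0.944 ± 0.0413 before hCG, 1.06 ± 0.0222 after 1 h and 3.68 ± 0.380 after 6 h. *Timp1* made up 52.0% ± 4.19 of the inhibitor sum at 0 h and 83.1% ± 1.24 at 6 h. *Timp3* made up 25.2% ± 1.49 at 0 h and 5.90% ± 1.11 at 6 h, so that the ratio of *Timp1* to *Timp3* went from 2.07 ± 0.264 to 14.4 ± 2.65.

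Within the proteases the makeup shifted as well. *Mmp11* gave 43.9% ± 6.13 of the protease sum at 0 h and 28.3% ± 2.77 at 6 h, and *Mmp14* gave 42.3% ± 5.34 and 52.8% ± 0.187. The ratio of *Mmp14* to *Timp2*, the pair that acts on the *Mmp2* precursor, was 1.97, 1.96 and 1.98 in the 0 h libraries. It was 1.80, 1.90 and 2.10 at 1 h and 1.37, 1.17 and 1.42 at 6 h. The 0 h ratios were close to each other although both genes were lowest in replicate 3, and all 6 h ratios lay below all others.

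**Figure D4:**
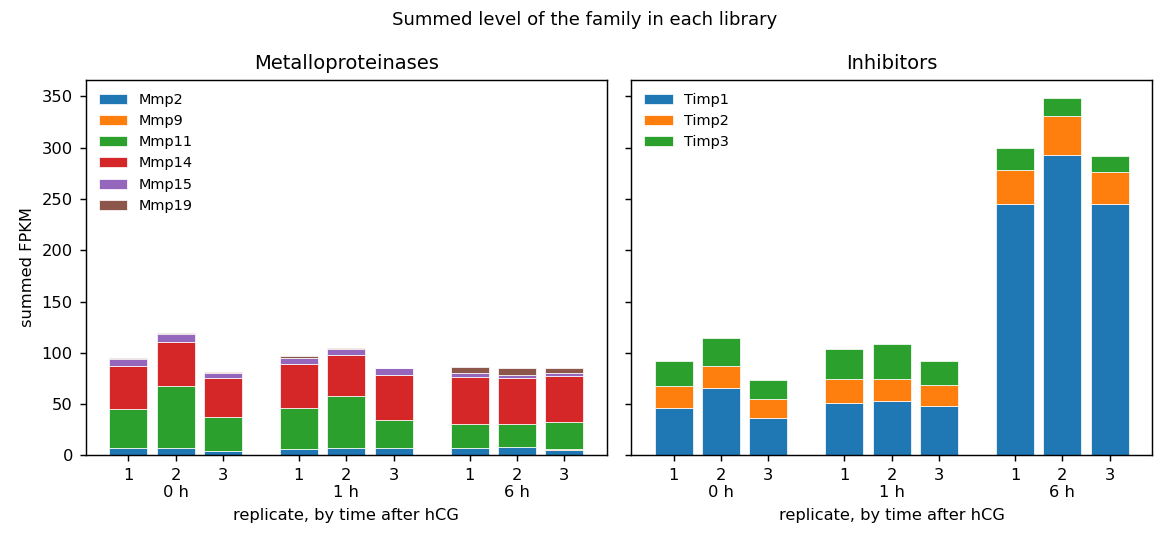
Summed FPKM of the 6 proteases (left) and the 3 inhibitors (right) in each library, on a shared linear axis, with a colour per gene; the bars of a time are its replicates. The inhibitor sum is 292 to 349 FPKM at 6 h, almost all of the added height is *Timp1*, and the protease sum stays between 81.6 and 119 FPKM.

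The members varied together between the 0 h libraries. Replicate 3 had the lowest value of 7 of the 9 genes and replicate 2 the highest of 7, where replicate 3 was lowest for 32.4% and replicate 2 highest for 28.3% of all genes tested. Replicate 3 was also lowest for 11 of the 12 theca and stroma markers tested, with *Col1a1*, the main fibrillar collagen gene, at 22.4, 25.2 and 13.0 FPKM in replicates 1 to 3. The high end differed from that of the members: 8 of the 12 markers were highest in replicate 1 and 4 in replicate 2. Of all genes tested, 32.5% were highest in replicate 1. At 6 h, where *Mmp11* and *Mmp15* were called lower, 5 of these 12 markers were called lower than at 0 h and 0 higher. Of all genes tested, 27.9% were called lower and 28.8% higher. The median log2 change of the 12 markers was −0.34. *Cyp17a1*, which marks theca cells and fell most of the 12, went from 123 ± 32.3 to 21.9 ± 5.04 FPKM. *Pdgfra* (0.05), *Pdgfrb* (−0.07) and *Tagln* (−0.11) changed least on the log2 scale and were not called. Without single libraries, 4 to 8 of the 12 markers were called lower than at 0 h, and 8 were without 0 h replicate 3. In that fit *Mmp11*, *Mmp15* and *Timp3* were the 3 members called lower. Against 1 h, where *Timp3* was called lower too, 8 of the 12 were called lower, beside 26.9% of all genes. The count was 5 when replicate 1 or 3 of 1 h or replicate 3 of 6 h was left out. The granulosa markers were lower at 6 h too: 9 of 10 were called lower than at 0 h, beside 27.9% of all genes. Their sum went from 11650 to 12380 FPKM at 0 h to 4614 to 4887 FPKM at 6 h. The part of these cells in the changes of *Mmp11*, *Mmp15* and *Timp3* was not tested. That part was also not tested for *Timp1*, *Timp2* and *Mmp19*, which were higher in the same libraries.

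Lists of other cell markers differed in how many were called higher at 6 h. Of 10 endothelial markers, 4 were called higher at 6 h than at 0 h and 0 lower, with a median log2 change of 0.36, and 9 of 9 oocyte markers tested were called higher, with a median of 0.83, beside 28.8% of all genes called higher. The changes of *Timp1*, *Timp2* and *Mmp19* in this comparison were 2.42, 0.70 and 1.63. The count of oocyte markers was 6 to 9 and that of endothelial markers 4 to 6 without single libraries. Without 6 h replicate 1, 1 endothelial marker was called lower than at 0 h. Against 1 h, where *Timp1*, *Timp2* and *Mmp19* were called higher too, 4 of 10 endothelial and 4 of 9 oocyte markers were called higher, beside 26.7% of all genes. The endothelial count was 2 when replicate 1 or 3 of 1 h or replicate 1 or 2 of 6 h was left out. The oocyte count was 2 when replicate 1 or 2 of 1 h or replicate 2 of 6 h was left out and 1 without 6 h replicate 3. Scaling FPKM to a common sum made it 7. Of 6 leukocyte markers tested, 0 were called higher than at 0 h and 1 lower, beside 28.8% and 27.9% of all genes. The count lower was 0 without 0 h replicate 2 or 6 h replicate 1. The part of oocytes and endothelium in the changes of *Timp1*, *Timp2* and *Mmp19* was not tested.

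Of 18 further genes of the family, 3 passed the filter: *Mmp16*, *Mmp23* and *Timp4*. *Mmp23*, a membrane-anchored protease gene, had levels of 22.2, 25.4 and 23.6 FPKM at 0 h, 20.1, 20.9 and 28.8 at 1 h, and 14.9, 12.3 and 15.1 at 6 h. Its 6 h libraries lay below all others, with a log2 change of −0.72 ± 0.13 against 0 h (limma, adjusted p = 0.00135) and −0.67 ± 0.13 against 1 h (adjusted p = 0.00225). *Timp4*, the fourth inhibitor, had 3.13, 2.76 and 0.655 FPKM before hCG, 2.84, 1.98 and 0.794 FPKM after 1 h and 0.458, 0.499 and 0.242 FPKM after 6 h. It passed the filter only through libraries of 0 and 1 h, where it is high, so its lower 6 h level is a description and its test is not used. *Mmp16*, the remaining gene tested, which was named after its values were seen, was at 3.62 ± 0.823 and 5.19 ± 0.871 FPKM at 0 and 6 h and was not called (adjusted p = 0.0748), though it was from the most abundant row and when 0 h replicate 1, 1 h replicate 3 or 6 h replicate 2 was left out. The collagenase and stromelysin genes *Mmp1a*, *Mmp1b* and *Mmp3* and the genes *Mmp7* and *Mmp20* were listed at 0 in all 9 libraries.

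Most genes listed here as acting on the family before and after its activity were called at 6 h. They were chosen with earlier results of these data known, so the counts are a description. In a list of 23 genes for activators, inhibitors of activation and surface receptors, 20 were tested, and 13 were called higher and 6 lower than at 0 h, beside 28.8% and 27.9% of all genes. The proprotein convertase gene *Pcsk5*, whose enzyme class removes the propeptide of furin-activated metalloproteinases, went from 16.6 ± 1.41 at 0 h and 27.0 ± 2.91 at 1 h to 157 ± 6.10 FPKM at 6 h (3.17 ± 0.09 on the log2 scale against 0 h). *Furin* went from 25.7 ± 1.57 and 27.9 ± 0.922 to 89.8 ± 0.314 FPKM (1.65 ± 0.06 against 1 h). The urokinase gene *Plau*, which starts the plasmin cascade, measured 38.4 ± 1.73, 74.9 ± 10.2 and 162 ± 36.0 FPKM at the 3 times, and *Plaur*, its receptor gene, 0.531 ± 0.0846, 0.882 ± 0.193 and 6.17 ± 0.370. *Plaur* passed the filter only with its 6 h libraries, where it is high, so its rise is a description, though the 13 include it. The plasminogen gene *Plg* averaged 0.0173, 0.0194 and 0.00935 FPKM and was not tested. Of the genes called lower, *Spock2* (−0.89), *Lrp1* (−0.69) and *Serpine2* (−0.45) fell most against 0 h. *Reck* (−0.42), *Serpinf1* (−0.40) and *Bsg* (−0.35) were the others. These and *Plg* were named after their values were seen. At 1 h *Plau* (0.94 ± 0.15) and *Pcsk5* (0.67 ± 0.09) were the 2 of 20 genes of this list called, both higher, beside 9.68% of all genes called higher, a share near that of the list. Without 1 h replicate 2 the count at 1 h was 4.

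Matrix genes that the proteases act on were called in both directions. Of 24 listed, 23 were tested, and 10 were called higher and 7 lower at 6 h than at 0 h, with a median log2 change of 0.03, beside 28.8% of all genes higher and 27.9% lower. *Vcan*, the proteoglycan of the expanding cumulus matrix, measured 263 ± 16.0, 650 ± 205 and 1996 ± 91.5 FPKM at the 3 times. *Col4a1*, a chain of basement membrane collagen, went from 69.3 ± 24.3 at 0 h to 175 ± 3.29 FPKM at 6 h, and *Col4a2* from 46.4 ± 13.9 to 111 ± 8.22. Other chains of the same collagen, named after their values were seen, were called lower at 6 h than at 0 h: *Col4a5* (−1.02 ± 0.10) and *Col4a6* (−0.94 ± 0.12). *Col4a4* went from 1.60 ± 0.00555 FPKM at 0 h to 0.730 ± 0.129 at 6 h. It passed the filter only through libraries of 0 and 1 h, where it is high, so its test is not used. The counts called lower at 6 h still include it. The laminin chain gene *Lama4* was also called lower, from 28.6 ± 4.55 to 9.09 ± 0.724 FPKM (−1.54 ± 0.14). Against 1 h the counts were 8 higher and 9 lower, beside 26.7% and 26.9% of all genes. At 1 h *Vcan* alone was called higher (1.25 ± 0.20), and 2 genes of the list were when replicate 2 of 0 h, replicate 2 of 1 h or replicate 3 of 6 h was left out.

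**Figure D5:**
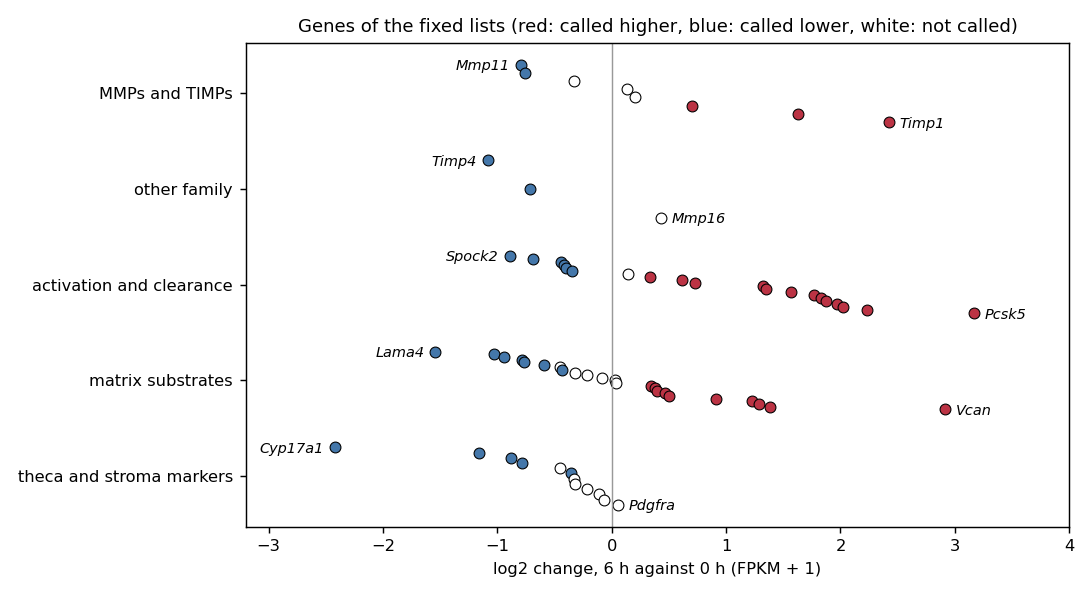
Log2 change of each tested gene at 6 h against 0 h, by list, where red and blue points passed an adjusted p below 0.05. *Timp4*, *Col4a4* and *Plaur* are coloured too but are a description only. They passed the filter on low values only through libraries of times where they are high. The family spans −0.80 to 2.42, *Pcsk5* (3.17) and *Vcan* (2.92) lead their lists, and *Cyp17a1* is the lowest of the theca and stroma markers.

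The genes whose levels followed those of each called member most closely over the 9 libraries were found among 9057 protein-coding genes averaging 5 FPKM or more, by Pearson's r of log2(FPKM + 1). The 9 libraries share the 3 times, so a high r can come from the times alone, and it is given as a description. For *Timp1* these were *Cacnb3* (r = 0.998) and *Parm1* (0.997), for *Timp2* *Igfbp6* (0.995) and *Prr13* (0.992), and for *Mmp19* *Cttn* (0.996) and *Slc25a30* (0.993). For *Mmp15* they were *Tmem176a* (0.992) and *Selenof* (0.980), for *Mmp11* *Dbp* (0.959) and *Shroom3* (0.945), and for *Timp3* *Mxra8* (0.956) and *Atpif1* (0.947). *Parm1* averaged 21.1 ± 3.77, 21.8 ± 0.470 and 99.3 ± 9.17 FPKM at the 3 times. *Dbp* and *Mmp11* shared their highest 0 h and 1 h library, replicate 2 at both times.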

How the data were processed

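RNA-seq of granulosa cells was analysed in 9 libraries, 3 per time. Per the labels' protocols, RNA was taken with Trizol and libraries were made from total RNA with an Illumina TruSeq kit. The deposited tables give FPKM made by the authors for 54759 rows per library, per the file headers. The submitters' processing notes list HISAT2 2.0.5 and the build mm10. The program behind the FPKM, its annotation and strand handling were not given in the sources used here, so reads of overlapping genes could be shared. In each library 9364 to 9682 rows had values above 0 and under 0.001 FPKM. Whole reads were therefore not recoverable, depth is unknown, and counting intervals are left out.

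Rows were summed per gene identifier. The tests used limma 3.58.1 (R 4.3.3) on log2(FPKM + 1), with the prior variance trended, 9 libraries in 1 fit and 6 residual degrees of freedom. The script was tested on simulated data. Coordinates are from GENCODE M21 (mm10) and promoters from RefSeq (GRCm38.p6). The members and the 8 lists were chosen with earlier results of these data known. All members were named, with up to 3 called genes of largest change per list and comparison, and the 2 genes most like each called member. Alternatives changed the pseudocount, filter, scaling, rows, libraries, replicate block and prior variance. Single cell markers, *Mmp16*, the printed promoters and the other genes marked so above were chosen after their values were seen. The planned protein descriptions were not used here.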

Additional observations from a re-analysis of the deposited data

How the results depend on the processing

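The counts of members called kept within 1.5 times of the main count under all 8 settings that keep every library. Leaving out 1 library at a time gave 1 to 3 members lower and 3 higher, both against 0 h and against 1 h, and 0 at 1 h. Over all genes, 924 to 1629 were called higher and 297 to 1228 lower at 1 h without 1 library, and 2634 were called lower with FPKM scaled to the mean sum. At 6 h the calls of *Timp1*, *Timp2*, *Mmp19* and *Mmp15* held under all alternatives run. Changes that turned sign were not called in any fit. At 1 h *Mmp14* was −0.120, *Mmp19* −0.074, *Timp1* −0.070 and *Timp2* −0.085 with FPKM scaled to the mean sum. Quantile normalization gave *Mmp14* −0.111, *Mmp15* 0.003, *Timp1* −0.076 and *Timp2* −0.008, and the most abundant row gave *Timp2* −0.047. Without 1 library the 1 h changes ran from −0.066 to 0.285 in *Mmp2*, −0.339 to 0.114 in *Mmp11*, −0.021 to 0.076 in *Mmp14*, −0.159 to 0.030 in *Mmp15*, −0.085 to 0.128 in *Mmp19* and −0.109 to 0.310 in *Timp1*. At 6 h *Mmp2* ran from −0.017 to 0.347 against 0 h and from −0.068 to 0.190 against 1 h. The cause was not tested. Libraries with the same replicate number did not deviate together in every pair, with r of deviations from −0.08 to 0.15. Between different numbers r ran lower, from −0.15 to 0.09. The labels do not say that the numbers pair libraries, so the numbers were not taken to pair them. With the replicate block, *Timp3* was called lower at 6 h than at 0 h (−0.33, limma, adjusted p = 0.0258), and no other member's call changed. At 1 h 685 genes were called lower with the block and 869 without it, and 3 matrix genes were called higher with the block, 2 with no filter on low values and 1 otherwise with all libraries. FPKM without reads limit what can be said of *Mmp9* and of the rows.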
